A study of Homo sapiens with 21 samples.

Results

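The genes described here are the core of the NRF2 antioxidant response together with the subunits of ferritin, the protein shell that stores iron inside cells. They were taken by gene symbol as NFE2L2, KEAP1, NQO1, GCLC, GCLM, TXNRD1, SRXN1, TXN, FTH1 and FTL. All 10 were found among the 20423 genes of the expression table. RNA sequencing gave their levels in THP1, a human acute myeloid leukemia line with monocytic features. A lentiviral short hairpin RNA (shRNA) vector, pLKO.1, was used to knock down IRF2BP2, a transcriptional cofactor, with 2 hairpins that had 3 libraries each. This arm was compared with 2 libraries of its own shRNA control. In the other arm ATF7 or JDP2, basic leucine zipper transcription factors, was knocked out with Lenti-CRISPRv2 constructs. Each knockout was represented by 2 single-cell clones with 2 libraries per clone, and both knockouts shared 1 knockout control with 2 libraries. A further library came from wild-type cells, which makes 5 control libraries and 19 libraries in all. A clone is the offspring of 1 edited cell, so a difference between a clone and the control can belong to the edit or to that cell.

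NRF2, encoded by NFE2L2, is a transcription factor that KEAP1 holds in the cytoplasm and delivers for degradation. Oxidants and electrophiles modify KEAP1, NRF2 then accumulates, pairs with a small MAF protein and binds antioxidant response elements near genes for quinone reduction, glutathione synthesis, thioredoxin recycling and iron storage. The ferritin shell is built of a heavy chain, FTH1, which oxidizes iron, and a light chain, FTL, which helps form the iron core. Monocytes and macrophages are major sites of iron storage and recycling, and ferritin is also controlled at translation, which RNA sequencing does not measure.

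Reads in genes numbered 28.7 to 60.2 M (mega) per library, and no member fell below 155 reads in any library. In 3 libraries more than 20% of genes lay over 2-fold from the median of all libraries, with 48.5% in IRF2BP2 shRNA 1 replicate 3, 25.6% in the library labelled IRF2BP2 shRNA 2 replicate 3 and 38.2% in JDP2 knockout clone 1 replicate 2. The targeted message IRF2BP2 stood at 16973 and 18382 normalized counts (reads divided by 1 size factor per library) in the shRNA control. It stood at 9456, 11110 and 9802 with shRNA 1 and at 12587, 16649 and 25651 with shRNA 2. The last library, labelled shRNA 2 replicate 3, was above both controls and goes against its label, so the tests on the knockdown, on shRNA 2 and between the hairpins were also run without it. Replicate 2 of shRNA 2, at 16649, was only slightly below the lower control at 16973. Among the shRNA 2 libraries only replicate 1, at 12587, was thus clearly below both controls. ATF7 and JDP2 messages do not check the knockout labels, since an edit can leave the message in place: ATF7 was 300 and 537 in the knockout control and 363 to 645 in its knockout, and JDP2 was 5085 and 3438 against 3158 to 5693. All 10 monocytic markers examined were tested and LYZ, SPI1 and CSF3R were high in every library, with lowest values of 12307, 5183 and 2355 normalized counts, while CD14 had a median of only 11.6 and the lymphoid CD3D, CD3E, CD3G and MS4A1 had a median of 0.

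Levels can be compared between genes only per length. Over the 5 controls, mean normalized counts per kilobase of exon (GENCODE exons) were 83863 ± 43513 (SD, n = 5) for FTL and 4773 ± 899 for FTH1. They were 1985 ± 413 for KEAP1, 1835 ± 364 for TXN, 490 ± 112 for TXNRD1 and 487 ± 125 for NQO1. The lowest were NFE2L2 at 411 ± 46.8, GCLM at 226 ± 72.8, GCLC at 132 ± 9.12 and SRXN1 at 77.4 ± 16.8. FTL was thus the most abundant message of the set and SRXN1 the least, while TXNRD1 and NQO1, or KEAP1 and TXN, lay within 1 SD of each other. The annotation names 25 pseudogenes of FTH1, 16 of FTL and 7 of TXN, and the way reads shared with them were counted is not stated, so the levels of these 3 genes are uncertain.

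The 30-base sites below show where the gene starts of the set carry the letters TGACNNNGC, the core of an antioxidant response element. They come from RefSeq windows of GRCh38.p14 that span 250 bases before to 50 bases after each annotated start, on the gene's own strand. The match is in capitals, and it is the reverse complement of the motif where it starts with GC.
KEAP1 (chr19:10502783-10502812, minus strand): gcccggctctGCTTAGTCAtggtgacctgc
KEAP1 (chr19:10502806-10502835, minus strand): acttttattgTGACACGGCgggcgcccggc
GCLM (chr1:93909445-93909474, minus strand): tacgatttctGCTTAGTCAttgtcttccag
TXNRD1 (chr12:104215670-104215699, plus strand): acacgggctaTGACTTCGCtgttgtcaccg
TXNRD1 (chr12:104215761-104215790, plus strand): gcgtccttcgGCTCCGTCAgttcccacagg
TXNRD1 (chr12:104286920-104286949, plus strand): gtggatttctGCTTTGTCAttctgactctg
Of the 10 members, 9 matched a window and FTH1 did not. Among their 12 windows 4 held this motif, in 3 genes, against 13.3% of all 35116 windows of the same length, searched on both strands. TGANTCA, the AP-1 motif, was in 0 of the 12 windows and in 7.71% of all. TGACGTCA, the cyclic AMP response element read by ATF-type factors, was in 0 of 12 and in 1.85% of all. The response element and AP-1 patterns can share bases. A match describes letters only, and elements outside these windows were not searched.

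**Figure D1:**
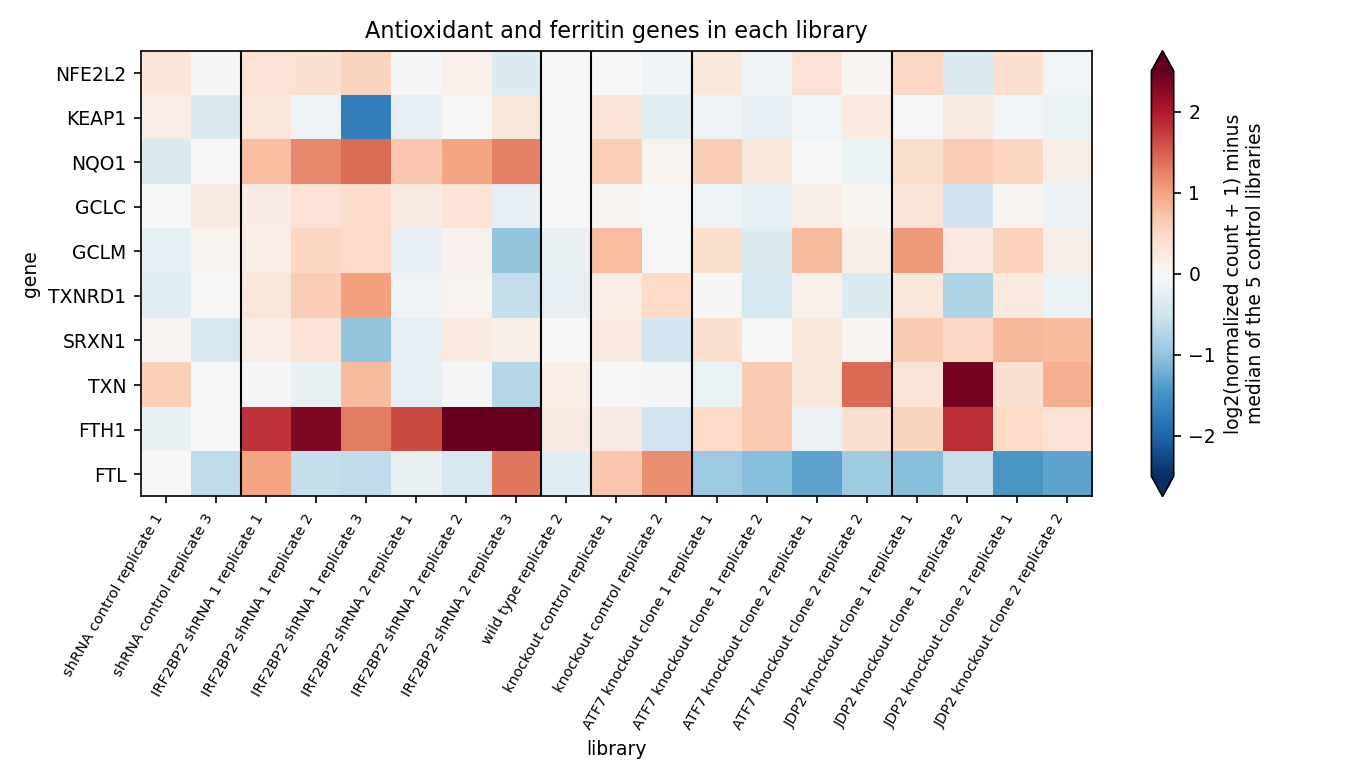
Level of each gene (rows) in each of the 19 libraries (columns), as log2(normalized count + 1) minus the median of the 5 control libraries, with black lines between the study's groups and colors capped at 2.5 in either direction. FTH1 and NQO1 were above that median in all 6 knockdown libraries, and FTL was below it in all 8 knockout libraries.

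The regulators came first. NFE2L2 (chromosome 2, 177227595 to 177392697) stood at 2948 and 2401 normalized counts in the shRNA control, 3049, 3083 and 3502 with shRNA 1, and 2300, 2584 and 1873 with shRNA 2. It was 2366 in wild type, 2349 and 2234 in the knockout control, 2217 to 3042 in the ATF7 knockout and 1837 to 3404 in the JDP2 knockout. The control range lay inside the range of every perturbed arm, and the highest library was only 1.91 times the lowest, the narrowest spread of the 10 genes by this ratio. The change was 0.0082 ± 0.32 (log2 change ± SE) in the knockdown, 0.20 ± 0.29 in the ATF7 knockout and 0.17 ± 0.29 in the JDP2 knockout, and limma gave Benjamini-Hochberg adjusted p values of 0.994, 0.902 and 0.810. KEAP1, the inhibitor of NRF2 (chromosome 19, 10486120 to 10503741), was 8543 and 5814 in the shRNA control and 2281 to 9236 in the knockdown, where the lowest value was shRNA 1 replicate 3. It was 7507 in wild type, 9407 and 6062 in the knockout control, 6501 to 8925 in the ATF7 knockout and 6689 to 8746 in the JDP2 knockout. The groups overlapped throughout, and limma gave changes of -0.15 ± 0.49, -0.047 ± 0.26 and -0.016 ± 0.26, with adjusted p values of 0.923, 0.986 and 0.983.

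NQO1, a quinone reductase and one of the most widely used NRF2 target genes (chromosome 16, 69706996 to 69726951), was higher in every knockdown library than in any other library of the study. It stood at 1144 and 1478 normalized counts in the shRNA control, against 2528, 3392 and 3892 with shRNA 1 and 2350, 2915 and 3557 with shRNA 2. Wild type had 1475 and the knockout control 2248 and 1575. The ATF7 knockout had 2254 and 1788 in clone 1 and 1471 and 1324 in clone 2, and the JDP2 knockout had 1991 and 2266 in clone 1 and 2155 and 1642 in clone 2. The mean was 3106 ± 608 (SD, n = 6) in the knockdown and 1755 ± 388 (n = 13) elsewhere, and 3.69% of all 13021 genes were likewise above all 13 other libraries. In the order of group means shRNA 1 (3271) and shRNA 2 (2940) came first and overlapped, and the next group, JDP2 knockout clone 1 at 2128, lay below both.

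Against the shRNA control NQO1 was higher by 1.23 ± 0.31 (log2 change ± SE) in the knockdown, with an adjusted p of 0.0686 in limma, which missed the threshold of 0.05. By hairpin the difference was 1.31 ± 0.35 for shRNA 1 and 1.16 ± 0.35 for shRNA 2, with limma adjusted p values of 0.104 and 0.159. The hairpins differed by -0.15 ± 0.32 (adjusted p = 0.818, limma). DESeq2 called NQO1 for either hairpin (adjusted p = 0.0123 and 0.0421), and edgeR for neither. For shRNA 1 and shRNA 2 DESeq2 called 671 and 630 genes in all, and edgeR 110 and 160. Without the library labelled shRNA 2 replicate 3 the knockdown value was 1.19 (adjusted p = 0.0700, limma), and without shRNA 1 replicate 3 it was 1.16 (adjusted p = 0.0188, limma), which passed. Set against all 5 controls NQO1 rose by 0.98 ± 0.20 (adjusted p = 0.00247, limma), where 12.7% of all 13021 genes were called. In the knockouts NQO1 differed from the knockout control by -0.17 ± 0.28 for ATF7 and 0.087 ± 0.28 for JDP2 (adjusted p = 0.926 and 0.911, limma), and both groups of knockout libraries overlapped the control.

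**Figure D2:**
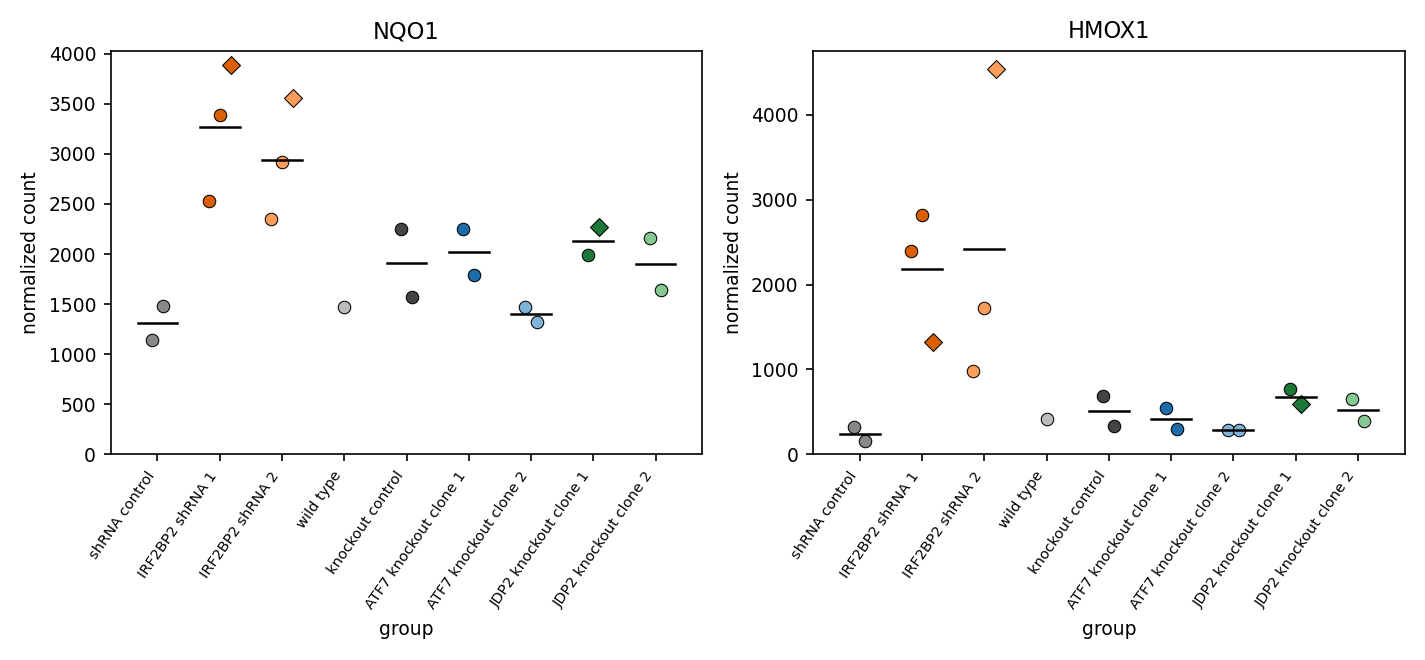
Normalized counts (linear axis from 0) of NQO1 and of HMOX1, another NRF2 target, in each library by group, with a line at the mean of groups with more than 1 library and diamonds for the 3 libraries in which over 20% of genes lay far from the median. The 6 knockdown libraries sit above all others in both panels, from 2350 to 3892 for NQO1 and from 984 to 4537 for HMOX1.

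Glutathione synthesis begins with glutamate-cysteine ligase, which has a catalytic subunit, GCLC (chromosome 6, 53497341 to 53616970), and a modifier subunit, GCLM (chromosome 1, 93885205 to 93909456). GCLC stood at 1094 and 1273 normalized counts in the shRNA control, 1265, 1405 and 1505 with shRNA 1, and 1272, 1390 and 954 with shRNA 2. It was 1088 in wild type, 1150 and 1092 in the knockout control, 921 to 1232 in the ATF7 knockout and 761 to 1359 in the JDP2 knockout. The arms overlapped, and the differences in limma were 0.12 ± 0.28, -0.067 ± 0.27 and -0.10 ± 0.27, with adjusted p values of 0.881, 0.981 and 0.883. GCLM was 942 and 1187 in the shRNA control, 1277, 1613 and 1551 with shRNA 1, and 967, 1196 and 562 with shRNA 2. All 3 libraries of shRNA 2 thus lay below all 3 of shRNA 1, as in 7.31% of 12867 genes, and the same held for NFE2L2 and TXNRD1. For shRNA 2 against shRNA 1 the GCLM difference was -0.77 ± 0.33 on the log2 scale (unadjusted p = 0.0398, adjusted p = 0.589, limma), and -0.45 without the library labelled shRNA 2 replicate 3 (adjusted p = 0.922, limma). GCLM was 978 in wild type, 1909 and 1116 in the knockout control, 875 to 1936 in the ATF7 knockout and 1243 to 2346 in the JDP2 knockout, again with overlap. The GCLM differences were 0.095 ± 0.39, -0.13 ± 0.37 and 0.13 ± 0.37 in the knockdown, ATF7 and JDP2 comparisons (adjusted p = 0.938, 0.969 and 0.900, limma), so neither subunit passed in any of them.

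The thioredoxin branch holds TXN, the small protein that reduces disulfides (chromosome 9, 110243811 to 110256640), TXNRD1, the reductase that recycles it (chromosome 12, 104215779 to 104350305), and SRXN1, which restores over-oxidized peroxiredoxins (chromosome 20, 646615 to 653370). SRXN1 had 265 and 159 normalized counts in the knockout control, 298, 226, 271 and 232 in the ATF7 knockout, and 351, 321, 393 and 386 in the JDP2 knockout. The shRNA control had 232 and 166, wild type 223, and the knockdown 111 to 282. Every JDP2 knockout library was thus above all 5 controls, as in 7.58% of 12541 genes. Against the knockout control the difference was 0.81 ± 0.27 in the JDP2 knockout (adjusted p = 0.215, limma) and 0.31 ± 0.27 in the ATF7 knockout (adjusted p = 0.829, limma). The JDP2 and ATF7 knockouts, which share that control, differed by 0.50 ± 0.22 in SRXN1 (unadjusted p = 0.0442, adjusted p = 0.999, limma).

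TXN was 1857 and 1827 in the knockout control. The ATF7 knockout had 1670, 2919, 2291 and 4996, and the JDP2 knockout had 2366, 9835, 2416 and 3465. The value of 9835 belongs to JDP2 knockout clone 1 replicate 2, and the other 3 JDP2 libraries were still above both controls of this arm. SRXN1, TXN and FTH1 were the 3 members with all JDP2 libraries above that control, as in 13.5% of 12643 genes. In TXN the JDP2 libraries were not all above the shRNA control, which had 2810 and 1867. The TXN difference was 1.02 ± 0.54 in the JDP2 knockout (adjusted p = 0.356, limma), and 0.55 without clone 1 replicate 2 (adjusted p = 0.557, limma). In the knockdown TXN ranged from 1146 to 3244 and differed by -0.36 ± 0.37 (adjusted p = 0.713, limma). TXNRD1 had 3581 and 4424 normalized counts in the knockout control. The ATF7 knockout had 3193, 2306, 3441 and 2468, all lower, a separation seen downward in 10.4% of 13573 genes. Its difference there was -0.50 ± 0.32 (adjusted p = 0.782, limma), and in the JDP2 knockout, with 3827, 1835, 3691 and 2798, it was -0.45 ± 0.32 (adjusted p = 0.506, limma). With the hairpins TXNRD1 was 3868, 4838 and 6404 for shRNA 1 and 2871, 3328 and 2062 for shRNA 2, beside 2546 and 3137 in the shRNA control and 2737 in wild type. The hairpins did not overlap, a separation found for 7.31% of genes. The difference was -0.87 ± 0.33 for shRNA 2 against shRNA 1 (unadjusted p = 0.0218, adjusted p = 0.589, limma), and -0.67 without the library labelled shRNA 2 replicate 3 (adjusted p = 0.922, limma).

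FTH1, the ferritin heavy chain (chromosome 11, 61959718 to 61967660), had the widest spread of the 10 genes over these libraries, with the highest library 21.5 times the lowest. It stood at 8723 and 9855 normalized counts in the shRNA control, 34703, 49500 and 24094 with shRNA 1, and 30929, 65136 and 152901 with shRNA 2. Wild type had 11454 and the knockout control 11300 and 7110. Every knockdown library was therefore above all 5 controls, and the mean was 59544 ± 48042 (SD, n = 6) against 9688 ± 1825 (n = 5). Of 12679 genes 6.25% were likewise above all 5 controls in the knockdown. The ATF7 knockout had 13938, 15522, 8920 and 12793, and the JDP2 knockout 14455, 35247, 13980 and 12610. The knockdown libraries were also above 12 of the 13 others, the exception being JDP2 knockout clone 1 replicate 2 at 35247. In the order of group means shRNA 2 (82988), shRNA 1 (36099), JDP2 knockout clone 1 (24851), ATF7 knockout clone 1 (14730) and JDP2 knockout clone 2 (13295) formed a run in which neighbours overlapped. Wild type (11454) lay below JDP2 knockout clone 2 without overlap, and ATF7 knockout clone 2 (10856), shRNA control (9289) and knockout control (9205) followed with overlapping neighbours, ATF7 knockout clone 2 also overlapping JDP2 knockout clone 2. Within shRNA 2, FTH1 and the IRF2BP2 message rose in the same order, from replicate 1 to replicate 3. FTH1 was thus highest there where the targeted message was highest. With shRNA 1 the orders differed, and the relation was not tested.

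In limma the knockdown exceeded the shRNA control by 2.38 ± 0.61 in FTH1, with an adjusted p of 0.0732, above the threshold. For shRNA 2 alone the rise of 2.86 ± 0.61 passed (adjusted p = 0.0416, limma), where 1.48% of 12738 genes were called, and for shRNA 1 the value was 1.90 ± 0.61 (adjusted p = 0.170, limma), where 1.26% were called. The call for shRNA 2 was lost without the library labelled shRNA 2 replicate 3, at 2.28 (adjusted p = 0.161, limma). For shRNA 1 FTH1 passed with equal totals (adjusted p = 0.0451, limma) and in DESeq2 (adjusted p = 0.00914), where 201 and 671 genes were called. The hairpins differed by 0.97 ± 0.55 in FTH1 (adjusted p = 0.589, limma), and by 0.38 without the library labelled shRNA 2 replicate 3 (adjusted p = 0.922, limma), so a difference between them was not shown. Without that library the knockdown value was 2.05 and passed (adjusted p = 0.0449, limma), and without all 3 libraries that stand far from the median it was 2.22 (adjusted p = 0.000406, limma). Set against all 5 controls FTH1 rose by 2.34 ± 0.37 (adjusted p = 0.000203, limma). In the JDP2 knockout FTH1 differed by 0.95 ± 0.41 from the knockout control (adjusted p = 0.279, limma) and in the ATF7 knockout by 0.48 ± 0.41 (adjusted p = 0.824, limma). The JDP2 value was 0.61 without clone 1 replicate 2 (adjusted p = 0.361, limma).

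Of the 10 members, 0 passed limma's adjusted test in the knockdown against its own control, while 1.79% of 12738 genes did. At an unadjusted p under 0.05 there were 2, FTH1 and NQO1, beside 1781 of 12738 genes. On reads recovered from the deposited values edgeR called 0 members and DESeq2 called FTH1 and NQO1, where 124 and 682 genes were called. Without the library labelled shRNA 2 replicate 3 limma called 1, FTH1, where 225 genes were called in all. The members other than FTH1 and NQO1 then had changes of -0.25 (KEAP1) to 0.53 (TXNRD1), with limma adjusted p values of 0.464 to 0.917. The libraries of the knockdown and the shRNA control did not overlap for FTH1 and NQO1, both higher, and overlapped for the other 8. Such separation upward was found for 11.1% of 12738 genes. Monocytic markers moved with this comparison: their summed level was 55049 to 214500 normalized counts in the knockdown and 38762 to 41605 in the shRNA control, and 2 of 10 rose, ITGAM by 3.17 ± 0.46 and TYROBP by 3.51 ± 0.59 (adjusted p = 0.00533 and 0.00987, limma). Without the library labelled shRNA 2 replicate 3 these were 2.88 and 3.17 (adjusted p = 0.000665 and 0.00591, limma). The 1 wild-type library had a marker sum of 103723, inside the knockdown range, with FTH1 at 11454 and NQO1 at 1475, both below all knockdown libraries. The largest terms of the sum were LYZ and SPI1, at means of 39948 and 15978 over all libraries. Neither of these was called in the knockdown (adjusted p = 0.267 and 0.829, limma). The part of the monocytic markers in the ferritin and NQO1 values was not tested.

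**Figure D3:**
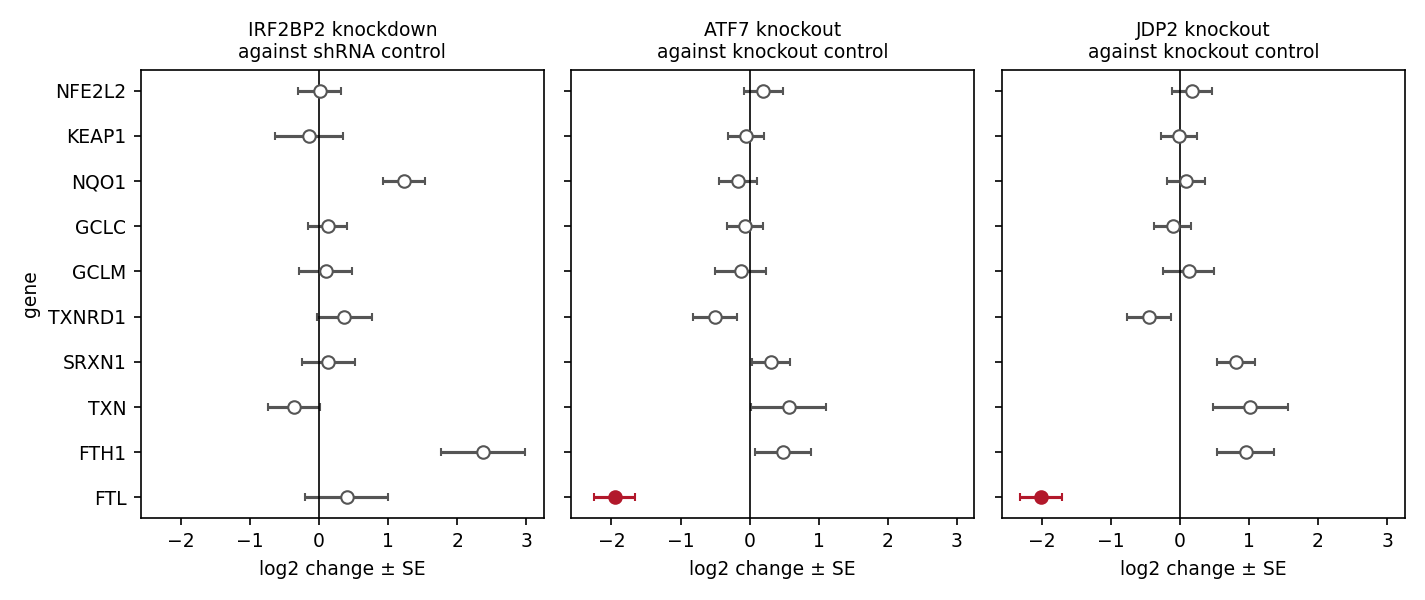
Difference of each gene from its own control in the 3 comparisons, as log2 change (horizontal axis) with bars of 1 SE, filled red where the limma adjusted p was under 0.05. FTL in both knockouts, at -1.96 and -2.02, is the one filled point in each of those panels, and FTH1 and NQO1 lie farthest to the right in the knockdown panel without passing.

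FTL, the ferritin light chain (chromosome 19, 48965301 to 48966878), was low in both knockouts. The knockout control had 93407 and 130699 normalized counts. ATF7 knockout clone 1 had 31336 and 28073, and its clone 2 had 23516 and 31802. JDP2 knockout clone 1 had 28120 and 39281, and clone 2 had 21546 and 23439. All 8 knockout libraries were below both libraries of their control (a separation seen downward in 10.4% of 13573 genes for ATF7 and 14.3% of 12643 for JDP2). The means were 28682 ± 3823 (SD, n = 4 libraries from 2 clones) for ATF7 and 28096 ± 7952 (n = 4 libraries from 2 clones) for JDP2 against 112053 ± 26369 (n = 2).

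In limma FTL fell by 1.96 ± 0.30 on the log2 scale in the ATF7 knockout (adjusted p = 0.0234) and by 2.02 ± 0.30 in the JDP2 knockout (adjusted p = 0.0143). It was the 1 member called in each, where 0.25% and 0.674% of 13208 genes were called. The comparisons share their control libraries. By clone the values were -1.90 ± 0.34 and -2.01 ± 0.34 for ATF7 clones 1 and 2 (adjusted p = 0.0938 and 0.0309, limma, where 0.121% and 0.848% of genes were called) and -1.73 ± 0.34 and -2.30 ± 0.34 for JDP2 clones 1 and 2 (adjusted p = 0.0593 and 0.0217, limma, where 0.409% and 0.553% were called). The calls by clone depended on scaling and tool. ATF7 clone 1 passed with equal totals (adjusted p = 0.0209) and quantile normalization (0.0308) in limma and in DESeq2 (4.31e-07), but not in edgeR (adjusted p = 0.0955). JDP2 clone 1 passed with equal totals (adjusted p = 0.0119) and quantile normalization (0.0104) in limma, in edgeR (0.0499) and in DESeq2 (3.29e-06). Clone 2 of either knockout passed in all of these as well. Clone 2 differed from clone 1 by -0.12 ± 0.34 for ATF7 and -0.56 ± 0.34 for JDP2 (adjusted p = 0.994 and 0.993, limma). The knockouts differed from each other by -0.059 ± 0.25 (adjusted p = 0.999, limma).

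The knockout control itself stood apart from the other controls in FTL. The shRNA control had 58788 and 37711 and wild type 47554, a mean of 48017 ± 10546 (SD, n = 3), and the knockout control was above the shRNA control by 1.23 ± 0.57 on the log2 scale (unadjusted p = 0.0438, adjusted p = 1.0, limma, with 0% of genes called). All 5 controls were above all 4 ATF7 libraries, as in 2.53% of 13086 genes, while JDP2 knockout clone 1 replicate 2 at 39281 was above shRNA control replicate 3. Set against all 5 controls FTL differed by -1.22 ± 0.41 in the ATF7 knockout and by -1.28 ± 0.41 in the JDP2 knockout (adjusted p = 0.435 and 0.0820, limma), and neither passed, where 0.0307% and 2.6% of 13021 genes were called. Both calls were also lost when either library of the knockout control was left out, with values of -1.71 to -2.20 for ATF7 (adjusted p = 0.309 to 0.497) and -1.77 to -2.26 for JDP2 (adjusted p = 0.170 to 0.299, limma). Whether the call rests on the edits or on a high control cannot be told apart with these libraries.

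In the knockdown FTL stood at 116998, 38752 and 37798 with shRNA 1 and at 51971, 43728 and 146393 with shRNA 2, the last in the library labelled replicate 3. These libraries spanned both sides of the shRNA control, and the difference was 0.40 ± 0.60 (adjusted p = 0.816, limma), or 0.15 without that library (adjusted p = 0.895, limma). In the order of FTL group means the knockout control (112053), shRNA 2 (80697), shRNA 1 (64516), shRNA control (48249) and wild type (47554) formed a run in which neighbours overlapped. JDP2 knockout clone 1 (33700) came next, below the wild-type library. It still overlapped the run, since its replicate 2 was above the lowest libraries of the shRNA control and of shRNA 1. ATF7 knockout clone 1 (29704) and ATF7 knockout clone 2 (27659) followed with overlapping neighbours, and then JDP2 knockout clone 2 (22493), below the lowest ATF7 library. The knockdown and knockout effects were also set against each other. This contrast includes the difference of knockout control from shRNA control, which was 1.23 ± 0.57 for FTL, so the high knockout control enters it. The effect of the knockdown minus that of a knockout on FTL was 2.35 ± 0.68 for ATF7 and 2.41 ± 0.68 for JDP2 (adjusted p = 0.129 and 0.0689, limma interaction). With the deposited size factors limma thus called 0 members, where 0.337% and 1.76% of 13057 genes were called for ATF7 and JDP2. At an unadjusted p under 0.05 there were 3 members for ATF7 and 2 for JDP2, beside 1628 and 2575 of the 13057 genes. The FTL call depended on the setting. In limma FTL passed with equal totals (adjusted p = 0.0379 for ATF7 and 0.0139 for JDP2) and with quantile normalization (adjusted p = 0.0473 and 0.0269). In that interaction edgeR called 0 members for ATF7 and FTL for JDP2 (adjusted p = 0.0940 and 0.0476 for FTL), and DESeq2 called NQO1 and FTL in both. For ATF7 and JDP2 edgeR called 61 and 275 genes in all, and DESeq2 361 and 995. Without the library labelled shRNA 2 replicate 3 the FTL values were 2.11 and 2.17 (adjusted p = 0.113 and 0.0649, limma).

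**Figure D4:**
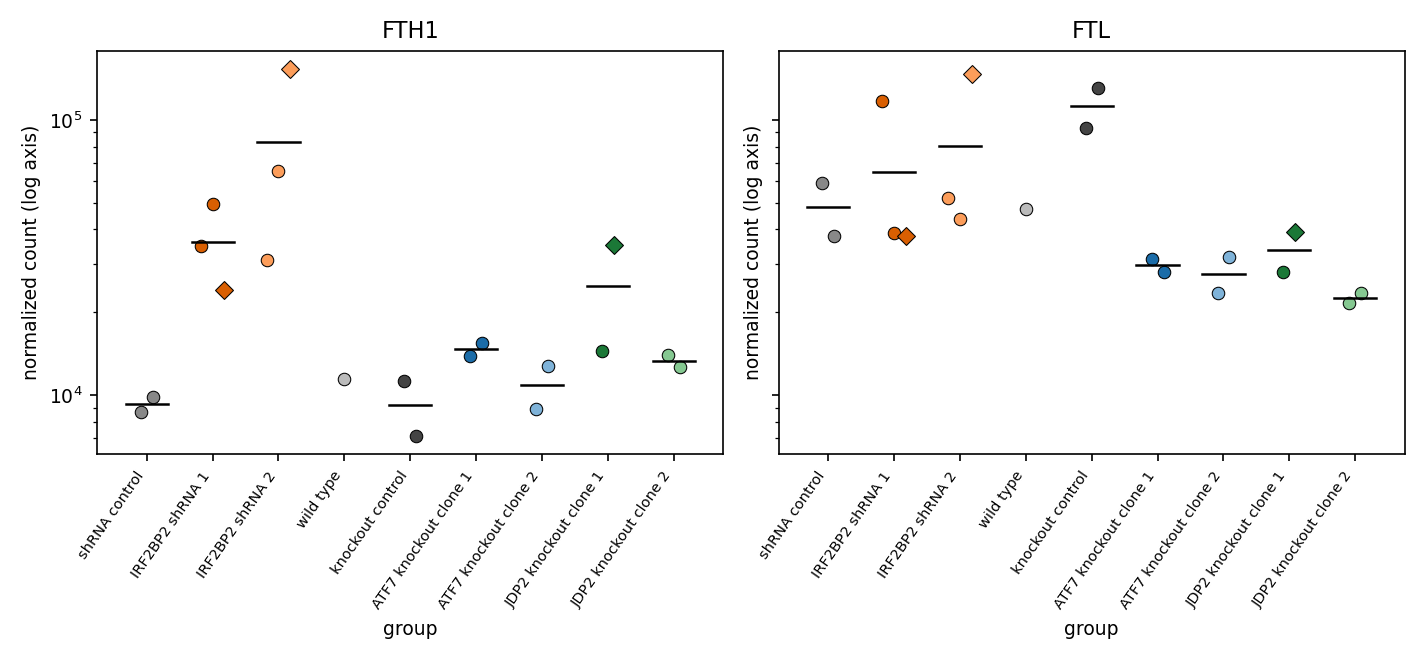
Normalized counts (log axis, shared) of FTH1 and FTL in each library by group, with a line at the mean of groups with more than 1 library and diamonds for the 3 libraries in which over 20% of genes lay far from the median. FTH1 is high in the 6 knockdown libraries (24094 to 152901) and FTL is low in the 8 knockout libraries (21546 to 39281), with the knockout control highest among the controls for FTL at 93407 and 130699.

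The balance of the ferritin messages was read as FTL reads per FTH1 read, a ratio within a library that does not depend on the size factor. It was 6.74 and 3.83 in the shRNA control, 4.15 in wild type, and 8.27 and 18.4 in the knockout control. With shRNA 1 it was 3.37, 0.783 and 1.57, and with shRNA 2 it was 1.68, 0.671 and 0.957. The ATF7 knockout had 2.25, 1.81, 2.64 and 2.49, and the JDP2 knockout 1.95, 1.11, 1.54 and 1.86. All 5 control libraries thus lay above all 14 perturbed libraries, with 3.83 in shRNA control replicate 3 and 3.37 in shRNA 1 replicate 1 nearest to each other. This split was noticed in the values and is given without a test.

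In the knockdown FTH1 was the chain with separated libraries, and ferritin (FTH1 and FTL together) took 0.241% to 0.668% of reads against 0.144% to 0.184% in the shRNA control. In the knockouts FTL was the chain that fell against its control, and ferritin took 0.0908% to 0.137% of reads against 0.266% to 0.420% in the knockout control and 0.162% in wild type. Per length the FTL to FTH1 ratio was above 1 in every library, with a mean of 12.2 in the shRNA control, 30.8 in the knockout control and 3.48 in the knockdown.

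**Figure D5:**
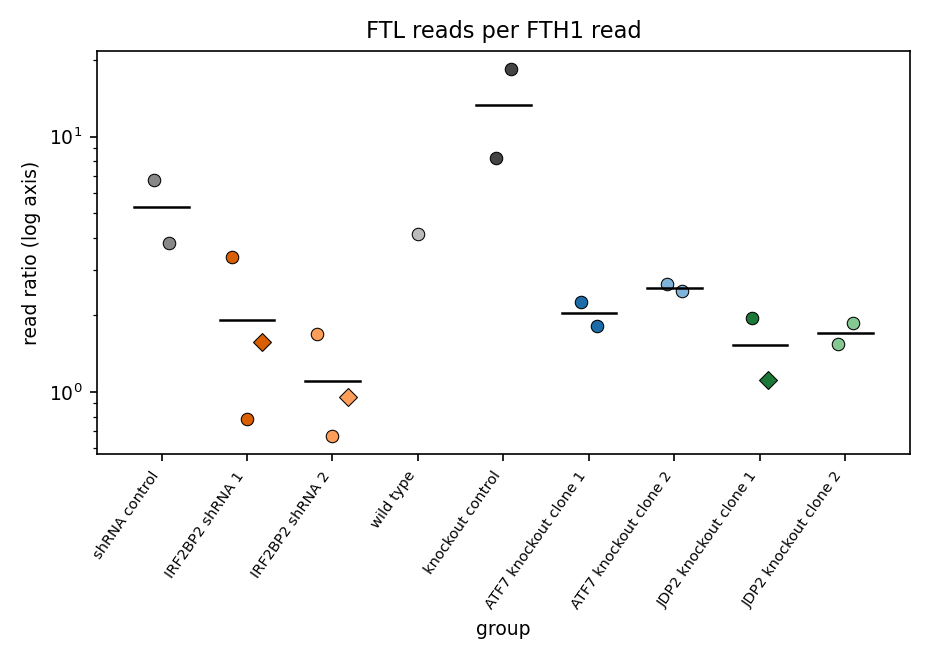
FTL reads per FTH1 read (log axis) in each library by group, with a line at the mean of groups with more than 1 library and diamonds for the 3 libraries in which over 20% of genes lay far from the median. The 5 control libraries lie between 3.83 and 18.4, and the 14 perturbed libraries lie between 0.671 and 3.37.

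Across all 19 libraries the members did not vary as 1 block. The Pearson correlation of log2 values was 0.80 between NQO1 and FTH1 and 0.84 over the 16 libraries left without the 3 that stand far from the median. It was 0.79 between GCLC and TXNRD1 (0.58 over 16), 0.73 between NFE2L2 and TXNRD1 (0.45 over 16) and 0.64 between NFE2L2 and GCLM (0.63 over 16). The ferritin chains correlated at 0.32, and at 0.042 over 16. NFE2L2 message and NQO1 correlated at 0.11. These values describe libraries that share groups and normalization, and the groups themselves set part of each.

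Among 11069 genes with a symbol and a mean of at least 50 normalized counts, those whose levels over the 19 libraries most resembled NQO1 were KCTD12 (0.90), IFIT3 (0.89) and IFIT2 (0.89). For FTH1 they were IRF7 (0.95), DNAJB2 (0.95) and ISG15 (0.95), and for FTL they were MANBAL (0.96), ORMDL3 (0.96) and TUBA1B (0.95). IFIT2, IFIT3, IRF7 and ISG15 are interferon-stimulated genes, and TUBA1B encodes an alpha-tubulin.

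Other genes of the same pathways were read from 4 lists. Of 29 tested further NRF2 targets 1 rose in the knockdown, where 1.79% of all 12738 genes were called. It was HMOX1, the enzyme that opens heme and frees its iron. It stood at 318 and 153 normalized counts in the shRNA control, 2402, 2825 and 1327 with shRNA 1, and 984, 1722 and 4537 with shRNA 2, above all controls, of which the highest had 685. The rise was 3.19 ± 0.51 (adjusted p = 0.00789, limma) and 2.96 without the library labelled shRNA 2 replicate 3 (adjusted p = 0.00907, limma). The call was lost without either shRNA control library (3.72 and 2.67, adjusted p = 0.0674 and 0.144, limma). In the knockouts HMOX1 was 289 to 543 for ATF7 and 390 to 774 for JDP2, overlapping the knockout control at 685 and 330.

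Over the 29 tested NRF2 targets the median difference in the knockdown was 0.22 on the log2 scale, beside -0.029 over all 12738 genes. Of 14 regulators and partners of NRF2, 28 other antioxidant enzymes and 20 iron handling genes, 0 passed in the knockdown in limma, beside 1.79% of all genes. Their medians were 0.37, -0.18 and -0.24. SQSTM1 can compete with NRF2 for KEAP1, and MAFG is a small MAF partner. By mean normalized count, not divided by length, they led the regulators, at 13533 and 6393 over all libraries. GPX4, which reduces lipid peroxides, and PRDX5 led the other enzymes at 16729 and 11467, and PCBP1 and PCBP2 led the iron genes at 38478 and 8107.

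In the knockouts 0 of 14 regulators, 0 of 28 other antioxidant enzymes and 0 of 21 iron handling genes passed in either comparison in limma. Over all 13208 genes 0.25% passed for ATF7 and 0.674% for JDP2. Of 30 further NRF2 targets 0 passed for ATF7 and 1 for JDP2, CES1, a carboxylesterase. Its level was 11802 and 10000 in the knockout control, 3333, 3733, 3557 and 3727 in the JDP2 knockout, and 6441, 6717, 2934 and 4716 in the ATF7 knockout. CES1 fell by 1.60 ± 0.32 in the JDP2 knockout (adjusted p = 0.0460, limma), a call that was lost on leaving out any 1 of 8 of the 10 libraries, among them either control library (adjusted p = 0.186 and 0.401). TKT, a pentose phosphate enzyme, and GSTP1, a glutathione transferase, had the highest mean normalized counts of these targets, at 61131 and 36583, not divided by length. Medians of all 4 lists in the knockouts were between -0.10 and 0.083, beside 0.035 and 0.0049 over all genes for ATF7 and JDP2.

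Clones of 1 knockout and the knockouts themselves were compared directly. In limma 0 of 10 members passed between the ATF7 clones, where 0.303% of genes did. At an unadjusted p under 0.05 there were 0 members, beside 874 of 13208 genes. Between the JDP2 clones 0 members passed as well, where 0.136% of genes did. Members at an unadjusted p under 0.05 numbered 0 in limma, beside 328 of 13208 genes, and 1, FTH1, in DESeq2. Between the JDP2 and ATF7 knockouts 0 members and 0% of genes passed in limma. SRXN1 was the 1 member at an unadjusted p under 0.05, beside 289 of 13208 genes. Between the hairpins 0 members and 0% of genes passed in limma. GCLM and TXNRD1 were under an unadjusted p of 0.05, beside 917 of 12738 genes. The edgeR and DESeq2 tests called 0 members in all 4 of these comparisons.

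The authors' deposited tables compare each perturbation with controls. In the authors' deposited table for the knockdown, FTH1 rose by 2.27 ± 0.32 (log2 fold change ± SE, adjusted p = 2.83e-10) and NQO1 by 0.93 ± 0.20 (adjusted p = 5.76e-05), where 17.5% of genes passed. In the authors' deposited table for the JDP2 knockout, FTL fell by 1.17 (adjusted p = 0.0108), SRXN1 rose by 0.74 (adjusted p = 0.0246) and TXN by 0.94 (adjusted p = 0.0404), where 12.1% of genes passed. In the authors' deposited table for the ATF7 knockout 0 members passed and 0.315% of genes did, with FTL at -1.15 ± 0.34 (adjusted p = 0.0973).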

How the data were processed

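The authors deposited DESeq2-normalized gene values, a signal per gene and library, and comparison tables with log2 fold changes, a Wald score and p-values. Per the submitters' processing notes, featureCounts, DESeq2 and hg38 were used. Which aligner, annotation and strand setting were used is not given in the sources used here. The members and lists were chosen with earlier results of these data known. Of 21 labelled libraries, 2 marked as low quality were not analysed here. All 388037 deposited values were whole multiples of 1 step per library within 0.01 (100%), which gave read counts. The labels do not say whether replicates were separate cultures, so p-values measure only the spread between libraries, which may be technical.

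Values were taken as log2(normalized count + 1), which understates changes of low genes. Genes with a mean of at least 10 in a fit were tested with limma 3.58.1 (R 4.3.3, empirical Bayes with trend) and called where the p adjusted by Benjamini-Hochberg over all genes tested was under 0.05. Both hairpins formed 1 group beside shRNA control in the knockdown fit, knockout control and both knockouts shared another fit, and hairpins and clones had groups of their own where compared. The fits by arm held no term for clone or hairpin. Libraries of 1 clone or hairpin therefore counted there as independent, although they are nested in it, which can make these p-values too small. An interaction term over both arms compared the knockdown effect with each knockout effect. Alternatives were edgeR 4.0.16 and DESeq2 1.42.0 on recovered counts, other scalings, filters and pseudocounts, array weights, all 5 controls, a replicate block and leaving out libraries. Those by hairpin, clone and arm were chosen after seeing the data. Called and named pathway genes followed a rule of up to 3 called per list and comparison by lowest p. With none called, the 2 with the highest mean normalized count were named. Lists of lymphoid, erythroid and megakaryocytic, epithelial and stromal markers were read beside the monocytic one, and of these only FN1, a stromal marker, passed in the knockdown (2.42, adjusted p = 0.0449). On simulated counts for the knockdown (12738 genes) limma called 7.32% of genes with a simulated log2 change of 1, 60% at 2 and 95.2% at 4. The ATF7 simulation (13208 genes) gave 5.48%, 71.4% and 96.9%, and that for JDP2 (13208 genes) 8.82%, 59.1% and 95.5%. These shares rest on a small sample of changed genes, drawn from those with higher means. The simulated libraries were independent, with no shared effect of a hairpin or clone, so recovery in these data may differ.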

Additional observations from a re-analysis of the deposited data

Results flagged for a closer look

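Dixon's gap test was run on 33 sets of 4 or 6 libraries, each of a member or of the FTL per FTH1 read ratio. In these, 2 libraries stood apart from the rest of their arm, and chance gives about 1 in 20. KEAP1 in IRF2BP2 shRNA 1 replicate 3 was the lowest of the 6 knockdown libraries at 2280.7 normalized counts, with the gap to the next at 0.754 of the range. FTH1 in JDP2 knockout clone 1 replicate 2 was the highest of the 4 JDP2 knockout libraries at 35247.1 normalized counts, with the gap at 0.867 of the range. Both are among the 3 libraries in which more than 20% of genes lay far from the median.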

How the results depend on the processing

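Of 640 recomputed changes of the 10 members in the 3 comparisons with a control, 574 kept their direction and side of the threshold, 14 lost and 13 gained the call, and 39 changed sign. In the knockdown 1 member passed with equal totals or quantile normalization, 2 with array weights, DESeq2, all 5 controls or the 3 far libraries left out, and 0 to 2 when 1 library was left out (2 without shRNA 1 replicate 3, 1 without the library labelled shRNA 2 replicate 3). For each knockout 0 passed with no filter or with all 5 controls, and 0 to 1 when 1 library was left out. The ATF7 call of FTL was lost without either knockout control library, ATF7 clone 1 replicate 1 or 2, clone 2 replicate 1 or JDP2 clone 2 replicate 2, and the JDP2 call without either control library or JDP2 clone 2 replicate 1 or 2. Between the hairpins 3 members (NFE2L2, GCLM, TXNRD1) passed with array weights, where 3962 genes were called. Chosen after seeing the data, tests on shRNA 2 and on the arms were rerun without the library labelled shRNA 2 replicate 3, and tests by hairpin, clone and arm with other scalings and tools. Without that library the sign turned for FTL between the hairpins (-0.22), and for GCLM (0.024), KEAP1 (-0.013) and TXNRD1 (0.13) with shRNA 2 against the control. The causes were not tested.

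Calls over all genes ranged from 124 (edgeR) to 1651 (all 5 controls) beside 228 in the knockdown, from 4 (all 5 controls) to 223 (DESeq2) beside 33 for ATF7, and from 53 (no filter) to 536 (DESeq2) beside 89 for JDP2. With 1 library left out they ran from 11 to 609, 0 to 98 and 0 to 125, and the knockouts had 0 without either control library. The share of higher calls was 86.0% in the knockdown with limma and 71.8% with edgeR, and 2.25% with limma and 29.3% with DESeq2 for JDP2. Equal totals shifted the median of all genes by -0.23 for JDP2, and NFE2L2, GCLM and NQO1, which changed sign there, lay above that shift.

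Values that changed sign in the knockdown were FTL with all 5 controls (-0.097), GCLM with a replicate block (-0.054) and all 5 controls (-0.069), KEAP1 with array weights (0.028) and without the far libraries (0.088), and NFE2L2 (-0.031) and SRXN1 (-0.033) with the block. For ATF7 they were GCLC with quantile normalization (0.024), and GCLM (0.17) and NQO1 (0.11) with all 5 controls. For JDP2 they were GCLC with array weights (0.038) and without the far libraries (0.046), KEAP1 with all 5 controls (0.026), and GCLM (-0.10), NFE2L2 (-0.059) and NQO1 (-0.14) with equal totals. Leaving out 1 library at a time gave ranges through 0 of -0.072 to 0.30 for GCLM, -0.43 to 0.15 for KEAP1, -0.14 to 0.16 for NFE2L2 and -0.11 to 0.37 for SRXN1 in the knockdown. The ranges for ATF7 were -0.14 to 0.0043 for GCLC, -0.51 to 0.26 for GCLM, -0.36 to 0.27 for KEAP1, -0.43 to 0.087 for NQO1 and -0.058 to 0.68 for SRXN1, and for JDP2 they were -0.23 to 0.046 for GCLC, -0.26 to 0.51 for GCLM, -0.33 to 0.30 for KEAP1 and -0.17 to 0.34 for NQO1. Where 1 control library remained, it was assumed to vary like the other groups.

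Same-numbered libraries correlated in their deviations from the group means at -0.29 to 0.42 (3 of 7 pairs over 0.1) in the knockdown and -0.58 to 0.58 (8 of 20) in the knockouts. Differently numbered libraries gave -0.42 to 0.31 (5 of 14) and -0.58 to 0.58 (8 of 20), so pairing by number was not shown. Groups of the knockout arm have 2 libraries each, with mirrored deviations. Their values therefore repeat with either sign, and this check cannot exclude a shared batch. With the replicate block 0, 1 and 1 members passed in the knockdown, ATF7 and JDP2 comparisons, as without it, and 209, 74 and 161 genes were called.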
